A study of Mus musculus with 18 samples.

Results

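Cytotoxic lymphocytes, which are CD8 T cells, innate-like T cells and natural killer (NK) cells, kill target cells by releasing granules that hold perforin and granzymes. In the intestine many of them sit between the epithelial cells as intraepithelial lymphocytes (IEL), and the transcription factors T-bet and Eomes drive much of their killing program and their production of interferon-gamma. The 10 genes described here make up this program: the granule genes *Gzma*, *Gzmb*, *Prf1* and *Nkg7*, the surface receptors *Klrd1*, *Cd160* and *Cd7*, the cytokine *Ifng*, and *Tbx21* and *Eomes*, which encode T-bet and Eomes. They were set by name, with no threshold on a measured value but with earlier results of these data known, and each had exactly 1 of the 47729 rows of the count table.

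RNA was sequenced from the colon of 9 mice on the C57BL/6 background, 3 per group. Control WT mice carried no transgene and are labelled as controls. AOM-DSS WT mice received azoxymethane (AOM), a carcinogen, as 1 dose of 10 mg/kg, and 3 cycles of 2.5% dextran sulfate sodium (DSS), which injures the colon epithelium, and this treatment gives colitis-associated cancer (CAC). AOM-DSS Claudin-2TG mice had the same treatment and carried a transgene for the tight junction protein claudin-2 under the villin promoter, which is active in the intestinal epithelium and not in lymphocytes. The deposited protocol names AOM and DSS under the control samples as well, so the groups follow the treatment label. The ages of the mice are not given in the sources used here.

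The granzyme genes *Gzma* and *Gzmb* had the widest range among the mice, and with *Nkg7* they are shown here by the 250 bases before their transcription starts (RefSeq, GRCm38.p6, each on the strand of its gene), because these granule genes had their highest values in the same mice, 5 and 6. Capitals mark a RUNX site (TGTGGT on either strand), the kind of site bound by Runx3 of killer T cells, or a T-box element (GGTGTGA on either strand), the kind bound by T-bet and Eomes. The windows lie at chr13:113100982-113101231 on the minus strand for *Gzma*, at chr14:56262335-56262584 on the minus strand for *Gzmb* and at chr7:43436888-43437137 on the plus strand for *Nkg7*. In the count table *Nkg7* starts at 43437073, before the RefSeq start used here. The end of its window, with the T-box match, therefore lies within the gene as counted.

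Gzma: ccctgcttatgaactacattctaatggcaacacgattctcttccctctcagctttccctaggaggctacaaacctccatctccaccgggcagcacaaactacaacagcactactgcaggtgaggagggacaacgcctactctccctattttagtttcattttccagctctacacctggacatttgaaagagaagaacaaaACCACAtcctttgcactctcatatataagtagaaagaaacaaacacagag

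Gzmb: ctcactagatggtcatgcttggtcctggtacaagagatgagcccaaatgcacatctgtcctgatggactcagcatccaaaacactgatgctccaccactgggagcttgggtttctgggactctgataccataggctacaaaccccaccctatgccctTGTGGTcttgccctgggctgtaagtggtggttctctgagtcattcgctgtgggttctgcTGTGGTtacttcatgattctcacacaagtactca

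Nkg7: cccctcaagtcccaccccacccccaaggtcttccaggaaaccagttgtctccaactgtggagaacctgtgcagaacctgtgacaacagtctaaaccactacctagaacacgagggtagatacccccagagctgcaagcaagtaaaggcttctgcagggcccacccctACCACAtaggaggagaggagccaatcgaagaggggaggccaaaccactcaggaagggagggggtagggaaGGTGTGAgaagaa

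The *Gzma* window holds 1 RUNX match, the *Gzmb* window holds 2, and the *Nkg7* window holds 1 beside 1 T-box match. Of the 10 genes, 8 had a window in RefSeq (*Cd160* had 2 windows), while *Klrd1* and *Cd7* were not in the table. A RUNX match was present for 5 of these 8 genes and a T-box match for 2, *Nkg7* and *Cd160*. Among all 32851 windows of this length, 14% hold a RUNX match and 3.33% a T-box match. The matches describe letters in these windows and are not binding sites shown by these data.

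Each mouse had 14142711 to 22262546 reads counted on genes, and the 3 counts that a library at 0 still allows stand for 0.13 to 0.222 CPM (counts scaled to the library total), for counting error only. CPM are given after TMM scaling over the 9 mice. The colon identity of the samples was plain, with *Krt8* at 5120 to 6870 CPM and *Epcam* at 2330 to 2560 CPM on group average. *Cldn2* was at 232 ± 35.6 CPM in Control WT, 129 ± 9.34 CPM in AOM-DSS WT and 226 ± 22.4 CPM in AOM-DSS Claudin-2TG mice (SD, n = 3). It was lower in AOM-DSS WT than in Control WT (adjusted p = 0.0138, edgeR) and higher in AOM-DSS Claudin-2TG than in AOM-DSS WT mice (adjusted p = 0.0103), so the transgenic mice exceeded the treated WT mice but not the untreated ones (log2 fold change -0.03, 95% interval -0.30 to 0.24). The first call was lost without mouse 2 or 3 and the second without mouse 8 or 9, with adjusted p-values of at most 0.0635 and 0.0597. *Xist*, which only female cells express, was at 214 CPM in Control WT mouse 1 and at no more than 0.203 CPM in the other 8 mice, so counts of genes called in AOM-DSS WT against Control WT are also given without this mouse. In bulk colon RNA, fewer cells of a type and less RNA per cell cannot be told apart.

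All 10 genes had low counts, and all 10 had their highest group mean in AOM-DSS WT mice. Per kilobase of exon, the mean level there was 10.2 CPM for *Gzma*, 4.0 CPM for *Cd7*, 3.53 CPM for *Gzmb*, 2.03 CPM for *Nkg7* and 1.23 CPM for *Klrd1*. The other 5 genes averaged 0.483 CPM per kilobase for *Cd160*, 0.286 for *Tbx21*, 0.127 for *Ifng*, 0.122 for *Eomes* and 0.0704 for *Prf1*. Transcripts of the 2 granzymes therefore outnumbered those of perforin, their partner in the granule, by a wide margin per length. Levels were uneven inside the groups. AOM-DSS WT mice 5 and 6 were above all 7 other mice for 7 of the 10 genes, whereas AOM-DSS WT mouse 4 was the lowest of its group for 7 genes and lay under Control WT mouse 3 for 6 genes. Control WT mouse 3 was in turn the highest of its group for 9 genes.

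**Figure D1:**
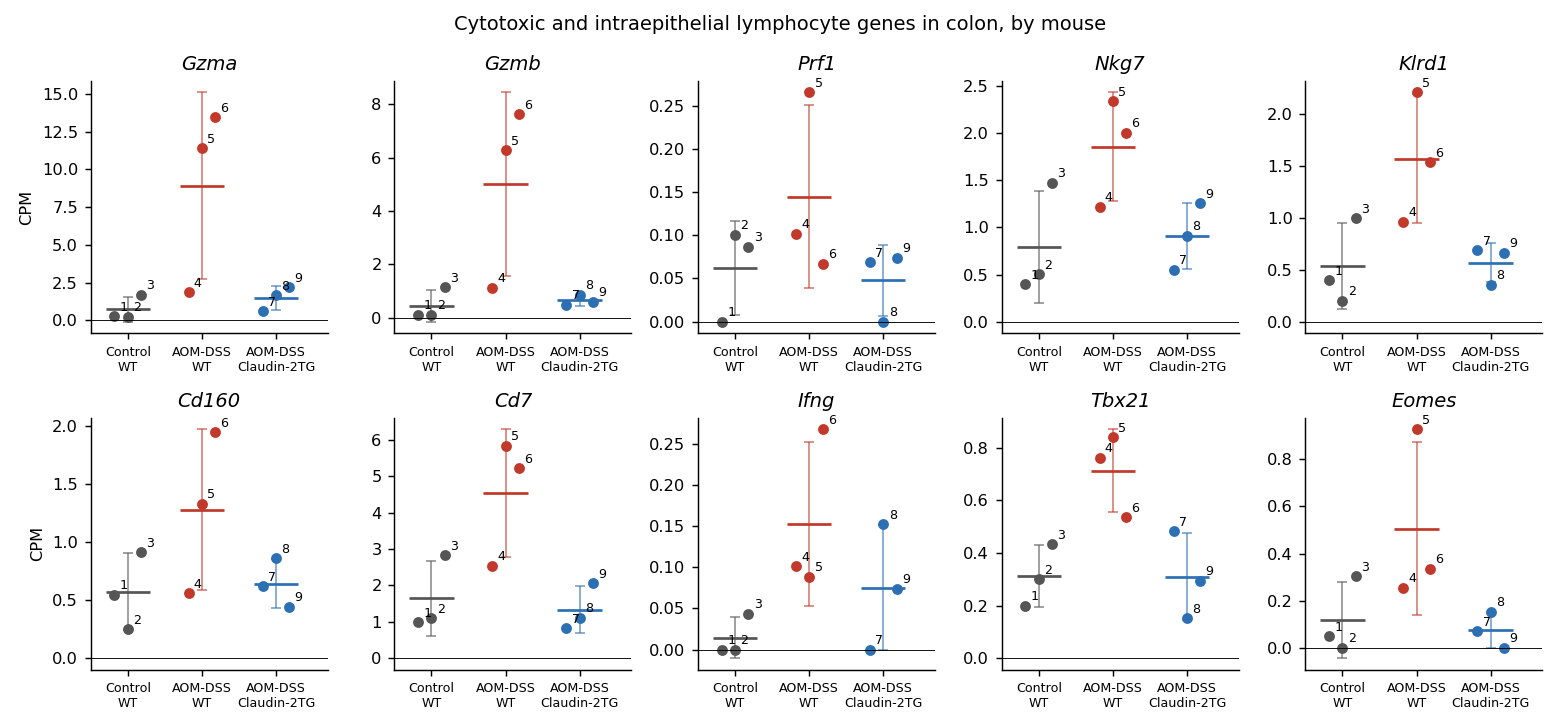
CPM of each of the 10 genes (y axis, linear, a scale of its own for each gene) in the 3 groups (x axis); each point is 1 mouse with its number, the horizontal line is the group mean and the vertical bar the SD (n = 3 mice). Mice 5 and 6 stand above the rest for most genes, while mouse 4 lies near Control WT mouse 3.

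*Gzma*, a granule protease released by killer cells (ENSMUSG00000023132, GRCm38 chr13:113093825-113100979, minus strand), was counted at 0.299, 0.251 and 1.69 CPM in Control WT mice 1, 2 and 3. In AOM-DSS WT mice 4, 5 and 6 it was 1.88, 11.4 and 13.5 CPM, and in AOM-DSS Claudin-2TG mice 7, 8 and 9 it was 0.62, 1.67 and 2.22 CPM. Every AOM-DSS WT mouse was above every Control WT mouse, mouse 4 by little, while the AOM-DSS Claudin-2TG mice overlapped with both other groups. Behind these values stand 50, 496 and 72 counts, summed over the 3 mice of Control WT, AOM-DSS WT and AOM-DSS Claudin-2TG.

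*Gzmb*, the granzyme that starts caspase-dependent death in target cells (ENSMUSG00000015437, chr14:56258856-56262260, minus strand), was at 0.0995, 0.1 and 1.13 CPM in Control WT mice 1 to 3. AOM-DSS WT mice 4, 5 and 6 had 1.12, 6.28 and 7.63 CPM, and AOM-DSS Claudin-2TG mice 7, 8 and 9 had 0.482, 0.861 and 0.591 CPM. All AOM-DSS Claudin-2TG mice lay under all AOM-DSS WT mice, and mouse 4 lay just under Control WT mouse 3. *Gzma* and *Gzmb* together made up 13.3%, 12.5% and 28.5% of the summed CPM of the 10 genes in Control WT mice 1 to 3, 31.6%, 56.1% and 63.9% in AOM-DSS WT mice 4 to 6, and 25.0%, 40.7% and 36.5% in AOM-DSS Claudin-2TG mice 7 to 9.

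*Nkg7*, which encodes a membrane protein of cytotoxic granules (ENSMUSG00000004612, chr7:43437073-43438249, plus strand), had a narrower range than the granzymes. It was at 0.398, 0.502 and 1.48 CPM in Control WT, at 1.22, 2.34 and 2.01 CPM in AOM-DSS WT and at 0.551, 0.912 and 1.26 CPM in AOM-DSS Claudin-2TG mice, in the order of their numbers. Mice 5 and 6 were the highest, and the groups overlapped. *Prf1*, the pore-forming perforin (ENSMUSG00000037202, chr10:61297836-61304263, plus strand), had 4, 9 and 2 counts in all over Control WT, AOM-DSS WT and AOM-DSS Claudin-2TG mice. It reached at most 0.265 CPM, in mouse 5, and was at 0 in mice 1 and 8, so most of its values were at or under the level that 3 counts give.

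The receptor genes were spread in the same way. *Klrd1* (ENSMUSG00000030165, chr6:129591782-129598775, plus strand) encodes CD94, which pairs with NKG2 receptors, and was at 0.398, 0.201 and 0.999 CPM in Control WT, 0.965, 2.21 and 1.54 CPM in AOM-DSS WT and 0.689, 0.355 and 0.665 CPM in AOM-DSS Claudin-2TG mice. All AOM-DSS Claudin-2TG mice were under all AOM-DSS WT mice, whereas Control WT mouse 3 was level with mouse 4. *Cd160* (ENSMUSG00000038304, chr3:96798763-96829351, minus strand), a receptor of IEL and NK cells, was at 0.547, 0.251 and 0.912 CPM in Control WT, 0.559, 1.33 and 1.94 CPM in AOM-DSS WT and 0.62, 0.861 and 0.443 CPM in AOM-DSS Claudin-2TG mice, with overlap between all groups. *Cd7* (ENSMUSG00000025163, chr11:121036747-121039418, minus strand), a surface protein of T and NK cells, was at 0.995, 1.11 and 2.82 CPM in Control WT, 2.54, 5.84 and 5.22 CPM in AOM-DSS WT and 0.827, 1.12 and 2.07 CPM in AOM-DSS Claudin-2TG mice. For *Cd7* the AOM-DSS Claudin-2TG mice again lay under every AOM-DSS WT mouse, while Control WT mouse 3 lay above AOM-DSS WT mouse 4.

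The regulators and the cytokine were close to the limit of detection. *Tbx21* (ENSMUSG00000001444, chr11:97098071-97115331, minus strand) was at 0.199, 0.301 and 0.434 CPM in Control WT, 0.762, 0.84 and 0.536 CPM in AOM-DSS WT and 0.482, 0.152 and 0.295 CPM in AOM-DSS Claudin-2TG mice. Among the 10 genes it alone had all AOM-DSS WT mice clear of both other groups. *Eomes* (ENSMUSG00000032446, chr9:118478212-118486132, plus strand) was at 0.0498, 0 and 0.304 CPM in Control WT, 0.254, 0.929 and 0.335 CPM in AOM-DSS WT and 0.0689, 0.152 and 0 CPM in AOM-DSS Claudin-2TG mice, from 8, 31 and 4 counts per group. *Ifng* (ENSMUSG00000055170, chr10:118441047-118445892, plus strand), which encodes interferon-gamma, had 1 count in Control WT, 8 in AOM-DSS WT and 4 in AOM-DSS Claudin-2TG mice, and no mouse passed 0.268 CPM.

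Some of these counts can hold reads of neighbouring or overlapping genes. In the GENCODE M21 transcripts, 6.92% of the distinct stretches of 50 bases in *Cd7* also occur, on either strand, in another gene, foremost *Gm11775*. The same holds for 19.9% of *Ifng*, shared with *Gm49751*, for 2.1% of *Eomes*, shared with *Gm33460*, and for 0.72% of *Cd160*, shared with *Pdzk1*. For the other 6 genes, *Gzma* and *Gzmb* included, the share was 0%. Whether the authors' counting used the strand is not given in the sources used here.

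AOM-DSS WT was compared with Control WT colon to show the program in CAC without the transgene. *Gzma* rose, with a log2 fold change of 3.56 (SE 0.94, 95% interval 1.33 to 5.78, adjusted p = 0.0478, quasi-likelihood test of edgeR), an 11.8-fold difference between groups of 3 mice. It was the only one of the 7 genes tested that passed the threshold of 0.05. The filter on low counts left out *Prf1*, *Ifng* and *Eomes*. For comparison, 15% of all 15437 genes tested were called, and 8.04% of all genes tested were called as higher.

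The other 6 genes tested had higher fitted means in AOM-DSS WT mice and did not pass in edgeR, while DESeq2 called *Gzmb* (adjusted p = 0.00117) and *Cd7* (adjusted p = 0.0233), and *Gzmb* also passed in the edgeR fit on all 9 mice (adjusted p = 0.0255). *Gzmb* was nearest, with 3.46 on the log2 scale (SE 1.02, 95% interval 1.06 to 5.85, adjusted p = 0.0627). *Cd7* had a log2 fold change of 1.48 (SE 0.49, adjusted p = 0.0777), *Tbx21* of 1.20 (SE 0.42, adjusted p = 0.0877) and *Klrd1* of 1.56 (SE 0.57, adjusted p = 0.101). The values were 1.23 for *Nkg7* (SE 0.52, adjusted p = 0.146) and 1.15 for *Cd160* (SE 0.58, adjusted p = 0.208). The median over the 7 genes was 1.48, and the median over all genes tested was 0.02. A low gene enters this test only when some mice are above the filter, so the median describes these genes alone.

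Without overlap between the groups, AOM-DSS WT was above Control WT for 3 of the 10 genes, *Gzma*, *Tbx21* and *Ifng*, of which the first 2 were tested. *Tbx21* passed the filter in this comparison alone, through the AOM-DSS WT mice, where it was high. Its place among the genes tested thus depended on those values. Among all genes tested, 17.7% were higher without overlap between the groups. For a single gene the two-sided exact permutation test then gives p = 0.1, the smallest that 3 mice against 3 allow. The pooled counts of the 3 genes that were not tested differed by a ratio of 4.3 for *Eomes* (95% interval 1.93 to 10.8), 2.5 for *Prf1* (0.697 to 11.1) and 8.88 for *Ifng* (1.19 to 394), scaled to the library totals, with intervals for counting error only that do not cover the spread between mice. The call of *Gzma* was lost without mouse 1, 2, 3, 5 or 6, with adjusted p-values of 0.0576 to 0.153 and log2 fold changes of 3.13 to 4.99. Without mouse 4, 4 genes were called (*Gzma*, *Gzmb*, *Klrd1* and *Cd7*), with an adjusted p of 0.00771 for *Gzma*. Calls over all genes moved in the same fits, from 2310 of 15437 with no mouse left out to 4080 of 15872 without mouse 4. They were 631, 135, 404, 1245 and 1062 without mouse 1, 2, 3, 5 and 6. The moves are thus not particular to the 10 genes.

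AOM-DSS Claudin-2TG was compared with AOM-DSS WT colon to show the program in treated mice with and without the transgene. *Gzmb* fell by 2.93 on the log2 scale (SE 0.69, adjusted p = 0.0357), a 7.64-fold difference. *Cd7* fell by 1.79 (SE 0.44, adjusted p = 0.0379), a 3.46-fold difference. These were 2 of the 6 genes tested, and *Tbx21* joined *Prf1*, *Ifng* and *Eomes* among the genes under the filter. Of all 14888 genes tested, 9.54% were called and 7.35% were called as lower.

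The other 4 genes had lower fitted means in AOM-DSS Claudin-2TG mice without passing in edgeR, while DESeq2 called *Gzma* too (adjusted p = 0.000619). The log2 fold change was -2.58 for *Gzma* (SE 0.76, 95% interval -4.36 to -0.80, adjusted p = 0.0826) and -1.51 for *Klrd1* (SE 0.45, adjusted p = 0.0715). It was -1.06 for *Nkg7* (SE 0.41, adjusted p = 0.156) and -0.96 for *Cd160* (SE 0.51, adjusted p = 0.31). The median over the 6 genes was -1.65, against 0.01 over all genes tested. All AOM-DSS Claudin-2TG mice lay under all AOM-DSS WT mice for 5 of the 10 genes, the tested *Gzmb*, *Klrd1* and *Cd7* and the untested *Tbx21* and *Eomes*, and 14.3% of all genes tested were lower in this way.

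Without the filter, *Eomes* had a log2 fold change of -2.56 (adjusted p = 0.0727) and *Tbx21* of -1.24 (adjusted p = 0.288). The pooled count ratio was 0.142 for *Eomes* (95% interval 0.0365 to 0.403), 0.245 for *Prf1* (0.0258 to 1.19) and 0.552 for *Ifng* (0.122 to 2.06), again for counting error only. Both calls were lost without mouse 5, 6, 7, 8 or 9, with adjusted p-values of 0.0832 to 0.141 for *Gzmb* and 0.0708 to 0.155 for *Cd7*. Without mouse 4, *Gzma* and *Klrd1* were called too, 4 genes in all, and *Gzma* had an adjusted p of 0.000768. Over all genes, 2894 of 15109 were called without mouse 4, beside 1421 of 14888 with no mouse left out. The calls over all genes were 555, 805, 460, 58 and 108 without mouse 5, 6, 7, 8 and 9. This comparison and the preceding one share the AOM-DSS WT mice, so a value of those mice enters both.

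**Figure D2:**
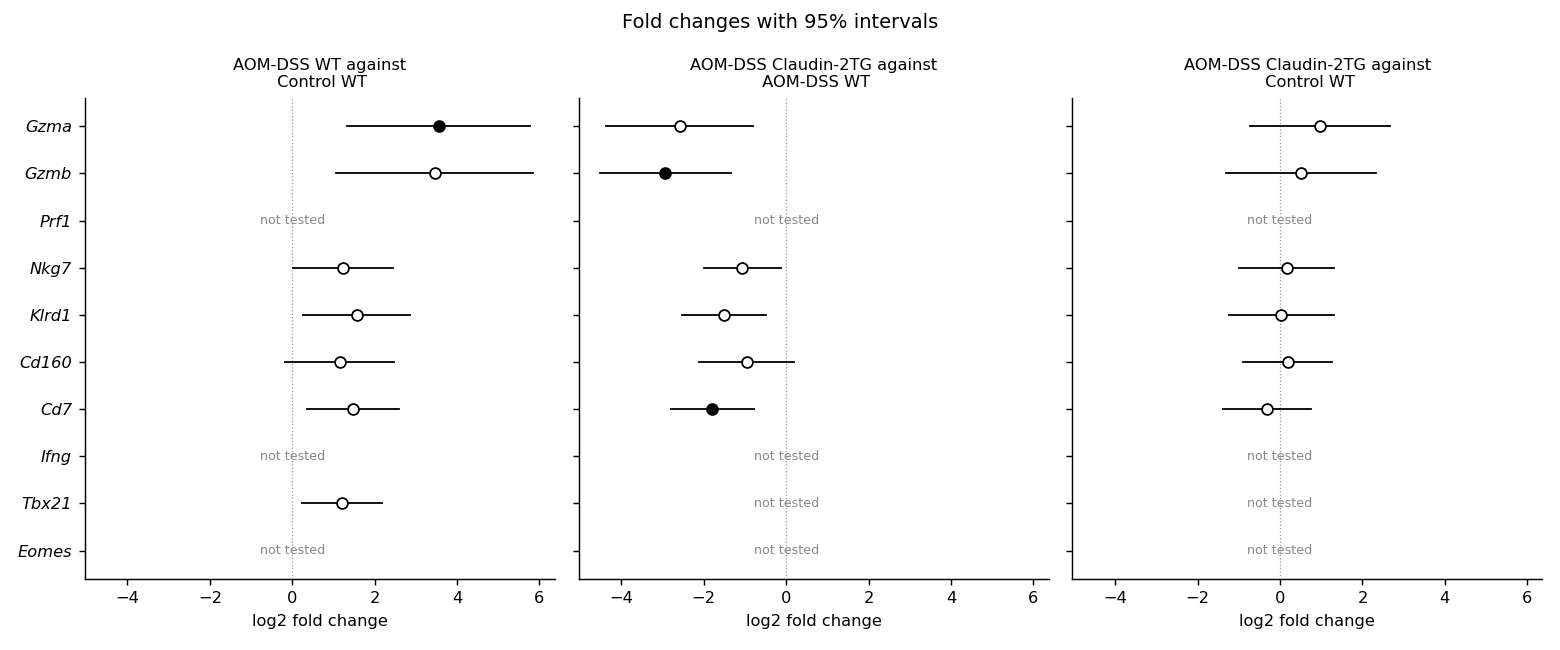
Log2 fold change (x axis) of each gene (y axis) in the 3 comparisons of 3 mice with 3, from edgeR; lines are 95% intervals, filled points have an adjusted p under 0.05 and genes under the filter on low counts are marked as not tested. *Gzma* is filled at 3.56 in the left panel, *Gzmb* and *Cd7* at -2.93 and -1.79 in the middle, and no point is filled on the right.

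AOM-DSS Claudin-2TG was then set beside Control WT colon. None of the 6 genes tested was called by edgeR, 0 had an unadjusted p under 0.05, and DESeq2 called 0, while 10.0% of all 15013 genes tested were called. The log2 fold change was 0.97 for *Gzma* (95% interval -0.72 to 2.66), 0.51 for *Gzmb* (-1.30 to 2.33) and -0.32 for *Cd7* (-1.38 to 0.74). It was 0.17 for *Nkg7* (-0.99 to 1.32), 0.03 for *Klrd1* (-1.24 to 1.31) and 0.19 for *Cd160* (-0.90 to 1.27). Single mice moved these values. Without Control WT mouse 3 the log2 fold change was 2.42 for *Gzma* (adjusted p = 0.0544) and 2.63 for *Gzmb* (adjusted p = 0.0583), while leaving out another mouse gave 0.57 to 1.32 and 0.07 to 0.67. On all 6 mice, the intervals include differences of more than 1 log2 unit for each of these genes but do not show that the groups are alike. Over the 10 genes, 6 had a higher and 4 a lower mean in AOM-DSS Claudin-2TG than in Control WT mice.

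T cell genes differed between these groups too. Of 14 genes of the T cell receptor complex and its signalling, 12 rose and 0 fell in AOM-DSS WT against Control WT, and 0 rose and 12 fell in AOM-DSS Claudin-2TG against AOM-DSS WT, and the median of their log2 fold changes was 2.24 and -2.23. *Zap70*, a kinase of T cell receptor signalling, was at 0.67 ± 0.231 CPM in Control WT, 6.21 ± 2.86 CPM in AOM-DSS WT and 0.589 ± 0.0313 CPM in AOM-DSS Claudin-2TG mice (SD, n = 3), and *Lck*, the kinase upstream of it, was at 3.60 ± 0.915, 6.54 ± 0.701 and 3.54 ± 0.202 CPM. Only 9 of the 14 passed the filter on low counts in AOM-DSS Claudin-2TG against Control WT, so the other 5 entered the first 2 comparisons through the AOM-DSS WT mice, where they were high, and the counts and medians describe these genes alone. The counts also depended on single mice: without mouse 2, 0 of the 14 rose, and without mouse 8, 0 fell and without mouse 9 only 1. Calls over all genes fell in the same fits. Without mouse 2, 75 of 15947 genes were higher, beside 1241 of 15437 with no mouse left out. Without mouse 8 or 9, 48 of 15186 and 86 of 15755 were lower, beside 1095 of 14888. The losses are thus not particular to this list, and the same fits give the leave-one-out counts of the lists that follow. Without mouse 1, 3 of the 14 rose. All 5 general leukocyte markers also rose and fell in these comparisons. Without Control WT mouse 1, 4 of these 5 markers rose. Without mouse 3 none of them rose, and without mouse 8 there were 3 that fell. The part of T cell number in the differences of the cytotoxic genes was not tested.

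Relative to the T cell genes, the summed level of the cytotoxic genes overlapped between all groups. The 10 genes summed to 2.99, 2.81 and 9.90 CPM in Control WT mice 1 to 3, 9.50, 31.5 and 33.0 CPM in AOM-DSS WT mice 4 to 6 and 4.41, 6.23 and 7.68 CPM in AOM-DSS Claudin-2TG mice 7 to 9. The 14 T cell receptor genes summed to 8.91, 8.08 and 16.3 CPM, to 35.2, 58.1 and 49.2 CPM and to 11.5, 10.4 and 14.3 CPM in the same mice. By this sum all AOM-DSS WT mice stood clear of the rest, mouse 4 included, whereas by the sum of the cytotoxic genes mouse 4 fell under Control WT mouse 3. The cytotoxic sum was 33.5%, 34.8% and 60.8% of the T cell receptor sum in Control WT, 27.0%, 54.3% and 67.1% in AOM-DSS WT and 38.3%, 59.7% and 53.9% in AOM-DSS Claudin-2TG mice, and the groups overlapped. *Gzma* alone was 3.35%, 3.11% and 10.4% of the T cell receptor sum in Control WT, 5.35%, 19.6% and 27.3% in AOM-DSS WT and 5.39%, 16.0% and 15.5% in AOM-DSS Claudin-2TG mice. *Cd7*, picked after its values were seen, was at 7.23%, 10.0% and 10.6% in AOM-DSS WT, each under the 11.2%, 13.7% and 17.3% of Control WT mice, and at 7.19%, 10.7% and 14.5% in AOM-DSS Claudin-2TG mice, which overlapped with both.

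**Figure D3:**
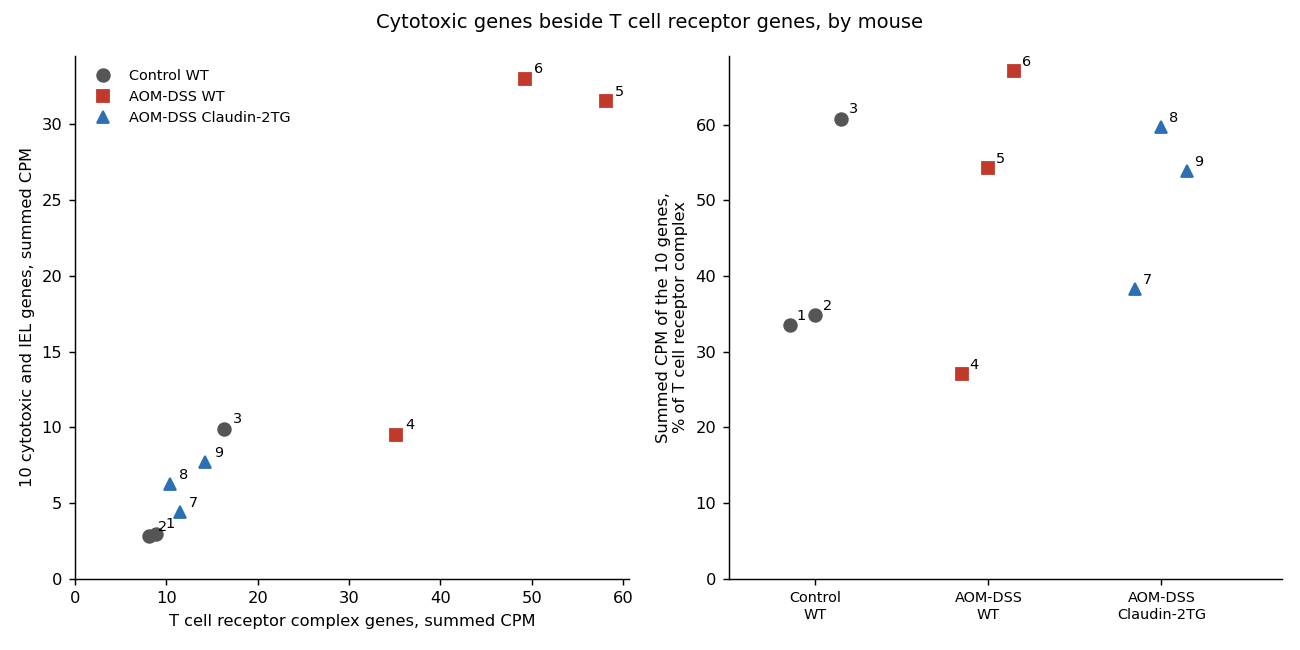
Left, the summed CPM of the 10 cytotoxic and IEL genes (y axis) against the summed CPM of 14 T cell receptor complex genes (x axis), 1 point per mouse with its number; right, the first sum as a percentage of the second, by group. Mice 5 and 6 lie at 31.5 and 33.0 CPM of cytotoxic genes, mouse 4 at 9.50, and the percentages of the groups overlap.

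Other genes of IEL moved in part. Of 20 listed genes, 18 were tested in AOM-DSS WT against Control WT, and 6 rose and 1 fell. In AOM-DSS Claudin-2TG against AOM-DSS WT 14 were tested, and 0 rose and 5 fell. Only 11 passed the filter in AOM-DSS Claudin-2TG against Control WT, so some, *Cd244a* among them (0.274, 4.67 and 0.195 CPM on average in Control WT, AOM-DSS WT and AOM-DSS Claudin-2TG), were tested through the group where they were high. Among those that rose and then fell were *Cd244a*, a signalling receptor of killer cells (log2 fold changes 4.09 and -4.48, adjusted p = 0.0138 and 0.0125), *Itgb7*, an integrin chain that guides lymphocytes to the gut (1.97 and -1.99, adjusted p = 0.0162 and 0.00777), and, chosen after their values were seen, *Cd8a*, the CD8 coreceptor (2.10 and -1.89, adjusted p = 0.0291 and 0.0322), and *Itgae*, the integrin chain that binds epithelial E-cadherin (1.55 and -1.25, adjusted p = 0.0185 and 0.0312). The exception was *Itga1*, a collagen-binding integrin chain that stromal cells express as well, at 16.7 ± 1.47 CPM in Control WT, 10.4 ± 0.452 CPM in AOM-DSS WT and 6.63 ± 1.95 CPM in AOM-DSS Claudin-2TG mice, which fell in AOM-DSS WT against Control WT (adjusted p = 0.0245, a call lost without mouse 1, 2, 3, 5 or 6) and in AOM-DSS Claudin-2TG against Control WT (adjusted p = 0.00453). *Ahr*, a sensor of diet-derived ligands that IEL and epithelial cells use, had log2 fold changes of 0.15 and -0.15 (adjusted p = 0.499 and 0.599). Without mouse 1 only 1 gene of the list rose and without mouse 2 none, without mouse 8 or 9 none fell, and without mouse 4 there were 14 that rose and 12 that fell. Calls over all genes went the same way. They were 631, 135 and 4080 without mouse 1, 2 and 4 in AOM-DSS WT against Control WT, beside 2310. In AOM-DSS Claudin-2TG against AOM-DSS WT they were 58, 108 and 2894 without mouse 8, 9 and 4, beside 1421.

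The list of NK receptors and adaptors had 17 genes, of which 6 were tested in either comparison, and 4 rose in AOM-DSS WT against Control WT while 4 fell in AOM-DSS Claudin-2TG against AOM-DSS WT. Only 4 passed the filter in AOM-DSS Claudin-2TG against Control WT, and the tallies include *Cd244a*, tested through the AOM-DSS WT mice. Its most abundant genes were the adaptors *Tyrobp*, at 2.39 ± 0.299, 11.0 ± 4.09 and 2.10 ± 0.809 CPM in Control WT, AOM-DSS WT and AOM-DSS Claudin-2TG mice (SD, n = 3), and *Fcer1g*, at 2.41 ± 0.609, 10.3 ± 4.54 and 1.52 ± 0.269 CPM. Macrophages and other myeloid cells use these adaptors too, and 5 of 7 macrophage markers rose and 5 of 7 fell in these comparisons. Some receptor genes of the list had low counts (named after their values were seen), with *Ncr1* from 0 to 0.354 CPM (21 counts over 9 mice, 0 in 2 of them) and *Klrb1c* from 0 to 0.406 CPM (33 counts, 0 in 1 mouse) near the limit of detection. Others were higher, with *Cd244a* at up to 6.9 CPM and *Slamf7*, named in the same way, at up to 2.52 CPM. *Slamf7* fell in AOM-DSS Claudin-2TG against AOM-DSS WT mice (log2 fold change -1.96, edgeR adjusted p = 0.0261). *Klrk1*, *Klrb1b* and *Cd96* reached 1.11, 1.5 and 2.12 CPM, and T cells express the first and the last of these as well. In AOM-DSS Claudin-2TG against Control WT 1 gene of the 4 tested was called, *Hcst*, the adaptor of NKG2D, which rose by 1.28 on the log2 scale (adjusted p = 0.0148). Without mouse 1 there were 2 that rose in AOM-DSS WT mice and without mouse 2 none, and without mouse 8 or 9 none fell in AOM-DSS Claudin-2TG mice, while without mouse 4 there were 9 that rose and 7 that fell, and the call of *Hcst* was lost without mouse 3 or 8. The filter was applied anew in each of these fits, so more than 6 genes of the list could be tested without mouse 4. Calls over all genes rose without mouse 4 too and fell without mouse 1, 2, 8 or 9.

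Of 20 other granule and killing genes, 9 were tested, and 2 rose and 0 fell in AOM-DSS WT against Control WT while 0 rose and 3 fell in AOM-DSS Claudin-2TG against AOM-DSS WT. Both tallies include *Stx11*, at 0.456, 3.91 and 0.146 CPM on average in Control WT, AOM-DSS WT and AOM-DSS Claudin-2TG mice. It was tested through the AOM-DSS WT mice, where it was high, and is named after its values were seen. *Srgn*, the proteoglycan core that packs granzymes in granules and that mast and myeloid cells also make, was at 3.99 ± 1.01 CPM in Control WT, 23.9 ± 6.21 CPM in AOM-DSS WT and 2.73 ± 0.619 CPM in AOM-DSS Claudin-2TG mice. Its log2 fold changes were 2.60 (adjusted p = 0.00403) and -3.15 (adjusted p = 0.00157). The most abundant genes of the list serve lysosomes of all cells: *Lamp1* was at 654, 653 and 650 CPM on average, and *Ctsc*, the protease that activates granzymes, at 107, 149 and 113 CPM (adjusted p = 0.0711 and 0.136). Of the other granzyme genes, all named after their values were seen, *Gzmc* reached 3.95 CPM in AOM-DSS WT mouse 6 (86 counts over 9 mice, 0 in 5 of them) and *Gzmm* was at 0.217 to 0.697 CPM. *Gzmk* was at no more than 0.478 CPM and *Gzmd*, *Gzme* and *Gzmf* at no more than 0.134 CPM, while *Gzmg* and *Gzmn* had no count in any mouse. Without mouse 1, 2 or 5 only 1 gene of the list rose and without mouse 8 or 9 only 1 fell, while without mouse 4 there were 8 that rose and 8 that fell. Calls over all genes moved in these directions as well.

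T-bet and Eomes work with other regulators. Of 12 such genes, 10 were tested in AOM-DSS WT against Control WT, and 4 rose and 0 fell, while 9 were tested in AOM-DSS Claudin-2TG against AOM-DSS WT, and 0 rose and 3 fell. Among the 4 was *Stat4*, named after its values were seen, at 0.253 CPM in Control WT and 0.904 CPM in AOM-DSS WT mice on average. It was tested through the AOM-DSS WT mice, where it was high. *Tcf7*, a factor of naive and memory-like T cells that epithelial cells also express, was at 5.97 ± 0.555, 20.5 ± 8.67 and 7.62 ± 0.554 CPM, and *Ikzf3*, a factor of lymphocytes, at 1.07 ± 0.677, 3.48 ± 0.0561 and 0.661 ± 0.317 CPM. *Runx3*, which directs the CD8 program, fell by 2.23 on the log2 scale in AOM-DSS Claudin-2TG against AOM-DSS WT mice (adjusted p = 0.0217; named after its values were seen). The most abundant genes of the list lay between the other groups in AOM-DSS Claudin-2TG mice: *Bhlhe40* was at 150 ± 25.5 CPM in Control WT, 259 ± 49.1 CPM in AOM-DSS WT and 213 ± 12.2 CPM in AOM-DSS Claudin-2TG mice, and *Id2* at 23.5 ± 3.53, 43.5 ± 14.9 and 36.1 ± 4.18 CPM. Both rose in AOM-DSS Claudin-2TG against Control WT (adjusted p = 0.0314 and 0.0194), and both are expressed far beyond lymphocytes. Without mouse 1 only 1 gene of the list rose in AOM-DSS WT mice and without mouse 2 or 3 none, and without mouse 8 or 9 none fell in AOM-DSS Claudin-2TG mice, while without mouse 4 there were 9 that rose and 7 that fell. In AOM-DSS Claudin-2TG against Control WT, leaving out mouse 2, 3 or 8 left none of the 3 genes that rose. The calls over all genes moved the same way in these fits.

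Of 16 genes of the cytokine axis that feeds these cells, IL-15, IL-12 and IL-18 with their receptors, 10 were tested in AOM-DSS WT against Control WT and 3 rose, the receptor chains *Il2rg*, *Il18r1* and *Il18rap*. Only 7 passed the filter in AOM-DSS Claudin-2TG against Control WT, so these tallies rest in part on genes tested through the AOM-DSS WT mice, where they were high. Between AOM-DSS Claudin-2TG and AOM-DSS WT 8 were tested, and the shared receptor chain *Il2rg*, the IL-15 receptor chain *Il2rb* and their kinase *Jak3* fell, while *Il18* rose. *Il2rg* was at 1.34 ± 0.652, 3.99 ± 0.772 and 0.868 ± 0.336 CPM in the order Control WT, AOM-DSS WT and AOM-DSS Claudin-2TG. The ligand *Il18* was at 152 ± 42.2, 91.5 ± 15.8 and 139 ± 14.4 CPM, with adjusted p-values of 0.071 and 0.049, and *Il15*, which keeps IEL alive, at 16.8 ± 3.86, 21.0 ± 8.02 and 21.9 ± 5.43 CPM (adjusted p = 0.429 and 0.972). Without mouse 1 only 1 of these genes rose in AOM-DSS WT mice and without mouse 2, 3, 5 or 6 none, and without mouse 7 or 8 none fell in AOM-DSS Claudin-2TG mice. Without mouse 4 there were 5 that rose and 6 that fell. The call of *Il18* was lost without any of mice 5 to 9. As for the other lists, calls over all genes rose without mouse 4 and fell without any other mouse.

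Interferon-gamma itself gave too few reads to test, and its receptor and target genes are listed in its place. Of 15 genes, all tested, 8 rose and 0 fell in AOM-DSS WT against Control WT, while 0 rose and 3 fell in AOM-DSS Claudin-2TG against AOM-DSS WT. The receptor chains *Ifngr1* (333, 336 and 422 CPM) and *Ifngr2* (246, 272 and 269 CPM) did not pass in either comparison. *Ciita*, the switch for MHC class II genes, rose by 2.53 on the log2 scale from 2.66 ± 1.09 to 15.1 ± 7.98 CPM in AOM-DSS WT mice (adjusted p = 0.0194). Without mouse 1 or 2 none of the 15 rose, and without any of mice 5 to 9 none fell, while without mouse 4 there were 9 that rose and 9 that fell. Calls over all genes moved too. In AOM-DSS WT against Control WT they went from 2310 to 631, 135 and 4080 without mouse 1, 2 and 4. In AOM-DSS Claudin-2TG against AOM-DSS WT they went from 1421 to 58 to 805 without any of mice 5 to 9, and to 2894 without mouse 4. Type I interferons act on many of the 15 genes as well.

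Genes of the epithelial side of this contact gave few calls, and short lists give few at the share of all genes. That share was 15% in AOM-DSS WT against Control WT (8.04% called higher) and 9.54% in AOM-DSS Claudin-2TG against AOM-DSS WT. The counts therefore do not set these partner genes, or the epithelial markers below, apart from all genes. Of 10 partner genes tested in AOM-DSS WT against Control WT only *Btnl2*, a butyrophilin-like gene, rose, from 1.06 ± 0.705 to 5.62 ± 3.09 CPM (adjusted p = 0.0364), a call lost without any of mice 1, 2, 3, 5 and 6. In AOM-DSS Claudin-2TG against AOM-DSS WT, edgeR called 0 of 8, with 2 at an unadjusted p under 0.05, and DESeq2 called 1 as higher and 1 as lower. *Cdh1*, E-cadherin, was at 1620 ± 84.3, 1220 ± 232 and 1490 ± 104 CPM (adjusted p = 0.132 and 0.388), and *Btnl6*, a ligand of gut gamma-delta T cells, at 54.9 ± 10.7, 59.4 ± 23.9 and 66.9 ± 18.5 CPM (adjusted p = 0.765 and 0.846). Of 8 epithelial markers none was called by edgeR in these comparisons, with 1 at an unadjusted p under 0.05 in each, and DESeq2 called 0 and 1. Between AOM-DSS Claudin-2TG and Control WT, edgeR called *Krt8* as higher (log2 fold change 0.43, adjusted p = 0.0384), DESeq2 called 2, and without mouse 2, 3, 8 or 9 edgeR called none.

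**Figure D4:**
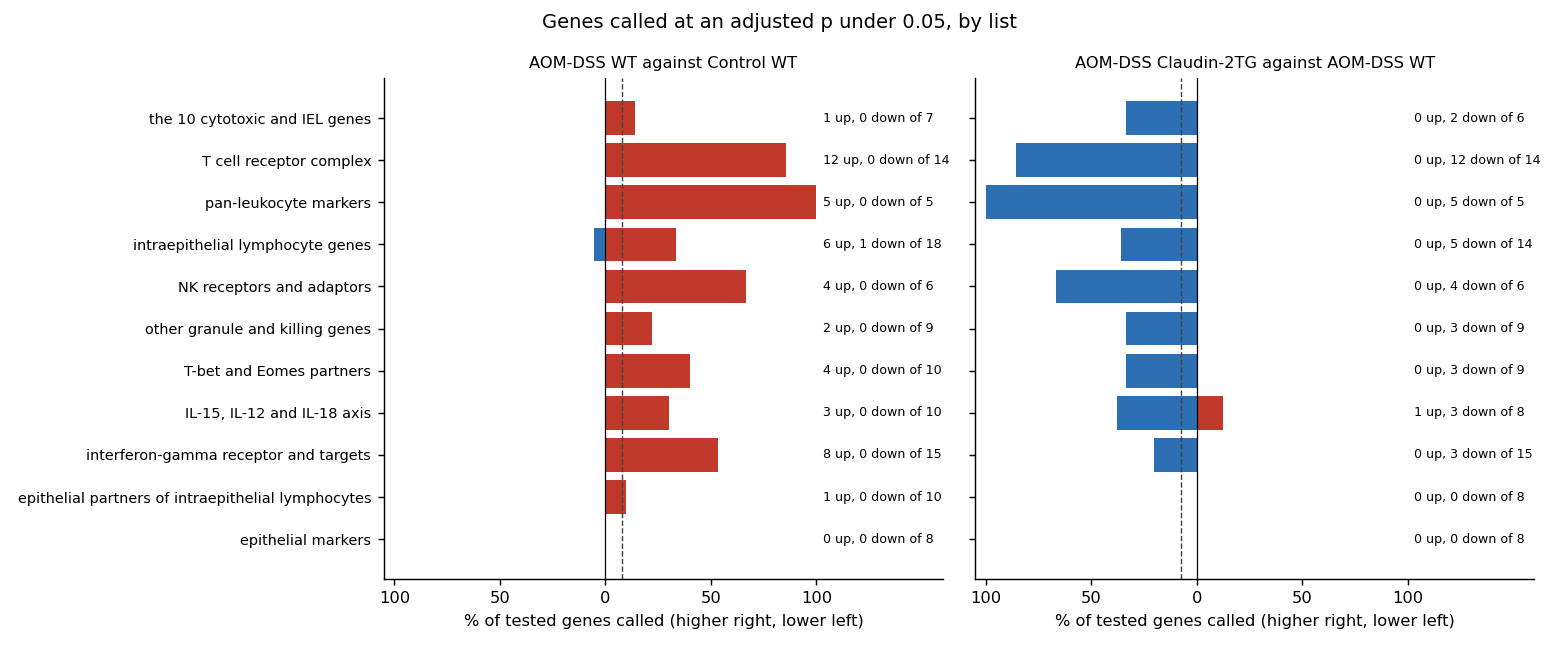
Percentage of the tested genes of each list (y axis) called at an adjusted p under 0.05 by edgeR, higher to the right in red and lower to the left in blue, in AOM-DSS WT against Control WT (left) and AOM-DSS Claudin-2TG against AOM-DSS WT (right); dashed lines mark 8.04% called higher and 7.35% called lower among all genes tested. The T cell receptor list reaches 12 of 14 in either panel, beside 1 of 7 and 2 of 6 for the 10 cytotoxic and IEL genes. Only 9 of these 14 and 6 of these 10 genes passed the filter in AOM-DSS Claudin-2TG against Control WT. Some genes were therefore tested through the AOM-DSS WT mice, where they were high, and the bars do not rank the lists by size of change.

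Markers of other cells moved with these groups as well, and their part in the results was not tested. Over all genes, 15% were called in AOM-DSS WT against Control WT and 9.54% in AOM-DSS Claudin-2TG against AOM-DSS WT. A short list with 0 or 1 call is not set apart from all genes by these shares. The 7 B cell markers summed to 4.22 to 36.0 CPM in Control WT, 29.9 to 59.0 CPM in AOM-DSS WT and 3.25 to 23.1 CPM in AOM-DSS Claudin-2TG mice, and edgeR called 0 of 7 in AOM-DSS WT against Control WT (2 at an unadjusted p under 0.05, 2 by DESeq2) and 1 of 7, *Cd79a*, in AOM-DSS Claudin-2TG against AOM-DSS WT (6 by DESeq2), a call lost without any of mice 5 to 9. Control WT mouse 1 held the 36.0 CPM, and without it 7 of the 7 rose in AOM-DSS WT mice. Macrophage markers summed to 152 to 182 CPM, 187 to 394 CPM and 102 to 139 CPM. Of 7 neutrophil markers 4 were tested and 4 rose in AOM-DSS WT against Control WT, although only *Ly6g* passed the filter in AOM-DSS Claudin-2TG against Control WT and the other 3 entered through the AOM-DSS WT mice, with *S100a9* at 0.184 ± 0.162 CPM in Control WT, 11.6 ± 10.7 CPM in AOM-DSS WT and 0.146 ± 0.00731 CPM in AOM-DSS Claudin-2TG mice, whereas *Ly6g* of the same list stayed at 314 and 328 CPM in the treated groups. Mast cell markers, which include granule proteases of another kind, had 2 genes that rose and 1 that fell in AOM-DSS WT against Control WT and 1 that rose and 2 that fell in AOM-DSS Claudin-2TG against AOM-DSS WT. Without mouse 1, 2 or 3 no mast cell marker rose in the first comparison and without mouse 4 there were 4, while in the second none rose without any of mice 5 to 9 and none fell without mouse 7, 8 or 9. The plasmacytoid dendritic cell list gave 0 and 1 calls in these comparisons (3 of 5 at an unadjusted p under 0.05 in each), and its most abundant gene, *Klk1*, is also made by colon epithelium. Of 6 smooth muscle markers edgeR called 0 in both (1 and 0 at an unadjusted p under 0.05), and DESeq2 called 1 and 0. Between AOM-DSS Claudin-2TG and Control WT, edgeR called 2 of them as lower, *Myh11* and *Acta2*, 1 without mouse 3 or 7 and 5 without mouse 2, and DESeq2 called 6. The 6 markers summed to 2875 CPM in AOM-DSS WT mouse 4, beside 1036 and 1260 CPM in mice 5 and 6, 1954 to 3966 CPM in Control WT and 939 to 1452 CPM in AOM-DSS Claudin-2TG mice. Without mouse 1, 1 macrophage and 1 neutrophil marker rose. Without mouse 2 or 3, 0 macrophage and 0 neutrophil markers rose, and without mouse 8 or 9, 0 fell. Without mouse 4, 7 macrophage and 5 neutrophil markers rose and 7 and 3 fell, with the filter applied anew to the mice that remained. Without mouse 4, 4 smooth muscle markers fell in AOM-DSS WT mice. In the comparisons with AOM-DSS WT mice, calls over all genes rose without mouse 4 and fell without any other mouse.

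Among the genes with a mean of at least 1 CPM, those with the most similar pattern over the 9 mice included several MHC class I genes. The likeness is Pearson's r of log2(CPM + 0.5) over all 9 mice, which share the group differences, and is given without a test. *Gzma* was most like *H2-D1*, a classical MHC class I gene (r = 0.99), and *Ripk3*, a kinase of necroptosis (r = 0.984). *Gzmb* was most like *H2-Q4* (r = 0.989) and *H2-Q6* (r = 0.988), class I genes whose close copies can share reads. *Nkg7* was most like *B2m*, the light chain of MHC class I (r = 0.977), and *Isx*, an intestinal homeobox gene (r = 0.964), and *Cd7* was most like *Isx* (r = 0.985) and *Sptssb*, a subunit of the enzyme that starts sphingolipid synthesis (r = 0.974). Between the genes themselves, r was 0.979 for *Gzma* with *Gzmb*, 0.953 for *Nkg7* with *Cd7* and 0.939 for *Gzma* with *Nkg7*, while *Prf1* with *Ifng*, both near the limit of detection, had 0.0055.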

How the data were processed

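RNA-seq libraries of 9 mouse colons, each run in 2 lanes, were analysed from the deposited table of whole-number counts per gene, which the authors made without normalization. The study's methods name a Quick-RNA Mini-Prep kit, NovaSeq6000 and TopHat2, the submitters' processing notes name HISAT2, Subread, featureCounts and GRCm38, and versions are not given in the sources used here. The deposited gene lengths, another column of the authors' table, served for levels per kilobase. Symbols matched 47224 of 47729 identifiers. Lanes differed by little more than counting noise (chi-square per degree of freedom 0.995 to 1.06) and were summed, and groups follow the genotype and treatment labels. The study's methods speak of littermate controls and do not say which of these mice shared a litter or cage, so p-values measure the spread between these 3 mice only.

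Each comparison was fitted on its 6 mice with edgeR 4.0.16 in R 4.3.3 (TMM, filterByExpr with a minimum count of 10 and minimum total of 15, robust quasi-likelihood, two-sided), with Benjamini-Hochberg adjustment over all genes tested and a threshold of 0.05. Standard errors were derived from the test statistic. Count ratios have exact binomial intervals. The scripts were tested on simulated data. Alternatives were DESeq2 1.42.0, library size only, RLE factors, no filter, all 9 mice, limma 3.58.1 voom with group weights, each lane alone and leaving out each mouse. Apart from the fit with no filter, the filter was applied anew in each fit, so the genes tested can differ.

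The 10 genes and the 16 other lists were chosen with earlier results of these data known. Named are the 10 genes, the 2 genes with the largest mean CPM and the gene with the smallest adjusted p in a comparison of each pathway list, the 2 genes most like each of the 4 genes that averaged 1 CPM or more, and *Cldn2*. Other genes named were chosen after their values were seen. The values of 1 gene that the rule names are not reported here. *Xist* served as a check of the mice. Promoter windows came from RefSeq (GRCm38.p6). No lane was left out.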

Additional observations from a re-analysis of the deposited data

How the results depend on the processing

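In AOM-DSS WT against Control WT, 1 of the 10 genes was called in the fit as reported. DESeq2 called 3 and the fit on all 9 mice 2, lane 1 alone called 3, and library size only, no filter, voom with group weights and lane 2 alone called 0, while leaving out 1 mouse gave 0 to 4. In AOM-DSS Claudin-2TG against AOM-DSS WT, 2 were called, 3 with DESeq2 (*Gzma* added), 1 on all 9 mice, with voom and with lane 2 alone, and 0 to 4 when 1 mouse was left out. Leaving out a mouse left fewer mice in the fit, and a single lane left fewer reads and fewer genes above the filter. The cause of any of these moves was not tested. Over all genes, leaving out 1 mouse gave 135 to 4080 calls in AOM-DSS WT against Control WT, beside 2310. In AOM-DSS Claudin-2TG against AOM-DSS WT it gave 58 to 2894, beside 1421. The direction of every gene tested held under every alternative in these comparisons. In AOM-DSS Claudin-2TG against Control WT no alternative gave a call, and 11 of the 77 fold changes changed sign: *Klrd1* was at -0.09 with library size only, and with 1 mouse left out the log2 fold change ran from 0.57 to 2.42 for *Gzma* and 0.07 to 2.63 for *Gzmb*, with no change of sign, and from -0.14 to 0.99 for *Nkg7*, -0.34 to 0.88 for *Klrd1*, -0.15 to 0.70 for *Cd160* and -0.75 to 0.33 for *Cd7*. Library size only moved the median of all genes to -0.09 and -0.11 in the comparisons with AOM-DSS Claudin-2TG mice. *Gzma* was called in 5 of 14 alternatives in AOM-DSS WT against Control WT (adjusted p from 0.00771 to 0.175), *Gzmb* in 6 of 13 and *Cd7* in 9 of 14 in AOM-DSS Claudin-2TG against AOM-DSS WT (0.000144 to 0.141 and 0.00301 to 0.155). No paired analysis was possible because the mouse numbers are not shared between the groups. At these depths *Prf1* and *Ifng* could not be tested above the filter.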

Other observations

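Of the granzyme genes outside the 10, *Gzmc* was picked out after its values were seen. It was at 0 CPM in each Control WT mouse, at 0.254, 0.929 and 3.95 CPM in AOM-DSS WT mice 4, 5 and 6, and at 0, 0.0507 and 0 CPM in AOM-DSS Claudin-2TG mice 7, 8 and 9. Mouse 6, the highest for *Gzmc*, was also the highest for *Gzma* and *Gzmb*. *Gzmd*, *Gzme*, *Gzmf*, *Gzmg* and *Gzmn* were at no more than 0.134 CPM in every mouse. *Ccl5*, a chemokine that killer T cells store, was picked in the same way and was at 1.99, 1.10 and 4.60 CPM in Control WT, 4.47, 7.30 and 6.43 CPM in AOM-DSS WT and 1.65, 2.48 and 4.43 CPM in AOM-DSS Claudin-2TG mice, with Control WT mouse 3 again near AOM-DSS WT mouse 4.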
